A study of Mus musculus with 10 samples.

Results

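Rab genes encode small GTPases that mark the membranes of the secretory and endocytic pathways. The set described here held every symbol in the deposited count table that is Rab followed by a digit and then at most a letter or a further number. Of 77 symbols that start so, 18 were left out as pseudogenes, antisense genes or longer names such as Rab11fip1 and Rab3gap1, and 3 (Rab17, Rab27b and Rab39b) had 0 counts in all libraries. This left 56 Rab genes of the 53546 genes in the table. By their best known membrane, 7 were placed at the early endosome, 10 at the recycling endosome, 6 at the late endosome and lysosome, 13 with lysosome-related organelles and regulated secretion, 13 at the endoplasmic reticulum and Golgi, and 7 in a group of other or less settled location. The placement came from textbook knowledge and not from these data, and several Rab proteins act on more than a single membrane.

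The libraries were bulk RNA sequencing of CNS-associated macrophages, the macrophages of the brain's borders such as the meninges and perivascular spaces. These cells were sorted by flow cytometry from individual, untreated C57BL/6N mice aged 6 to 8 weeks. The genotypes were Mrc1-CreERT2/Mrc1-CreERT2 (homozygous, n = 4), Mrc1-CreERT2/wt (heterozygous, n = 3) and wild type (n = 3). CreERT2 is a Cre recombinase fused to part of the oestrogen receptor and needs tamoxifen to act. The allele is named after Mrc1, which encodes CD206, an endocytic mannose receptor. Wild-type mice had 3481 ± 365 CPM of Mrc1 itself (SD, n = 3), heterozygous mice 2153 ± 153 CPM (SD, n = 3) and homozygous mice 489 ± 48.6 CPM (SD, n = 4), so the carriers' macrophages also hold less transcript of this receptor. CPM are counts per 1000000 counts of a library after scaling between libraries. Values below are listed in the order of the replicate numbers, which are 1 to 3 for wild type, 1, 2 and 4 for heterozygous and 1 to 4 for homozygous mice. The order itself has no meaning.

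A Rab protein is carried to its membrane with a lipid tail, is switched on there by an exchange factor that loads GTP, and then recruits effectors that tether, move or fuse vesicles. GTPase-activating proteins switch it off, and GDI (GDP dissociation inhibitor) lifts it from the membrane for the next round. In macrophages, cargo taken up by receptors such as CD206 passes through early endosomes marked by Rab5, and either returns to the surface through recycling endosomes marked by Rab4 and Rab11 or moves on to late endosomes and lysosomes marked by Rab7. Most of this control lies in the protein cycle and not in the transcript level, which is all that was measured here.

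Libraries held 22986972 to 36575446 counts. The summed level of 11 of 11 markers of CNS-associated macrophages was 60789 to 69203 CPM in wild-type, 58974 to 71962 CPM in heterozygous and 60099 to 71603 CPM in homozygous libraries. Apoe gave most of that sum, with means of 36278, 40806 and 41702 CPM in wild-type, heterozygous and homozygous libraries. Single markers differed more, with Cd74 at 7317 to 12691 CPM in wild-type against 1296 to 4690 CPM in homozygous libraries, and Lyve1 at 628 to 638 against 1048 to 1260 CPM. The 9 microglia markers summed to 4191 to 9836 CPM in wild-type, 4276 to 6510 CPM in heterozygous and 2105 to 3258 CPM in homozygous libraries, with none at 0 in any group. The 8 monocyte markers summed to 84.0 to 198 CPM in wild-type, 54.4 to 72.4 CPM in heterozygous and 6.24 to 17.6 CPM in homozygous libraries. Among them, Chil3 was at 0 in every group, Fn1 also in homozygous and Vcan also in heterozygous libraries. The 6 B cell markers summed to 466 to 761 CPM in wild-type, 349.8 to 475 CPM in heterozygous and 265 to 433 CPM in homozygous libraries, with Cd79a and Ms4a1 at 0 in heterozygous libraries. Of the 6 neuron markers none was at 0 in all libraries of a genotype, though most were at 0 in single libraries. They summed to at most 13.96, 14.3 and 21.6 CPM in wild-type, heterozygous and homozygous libraries. Wild-type replicates differed most from each other, with a chi-square per gene of 176 to 201 between pairs against 112 to 134 in heterozygous and 89.5 to 126 in homozygous pairs. No pair therefore agreed within counting noise. Each library came from a single mouse, so p-values measure the spread between libraries, which mixes differences between mice and between preparations. Fewer cells of a type and less RNA per cell cannot be told apart in such samples.

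The Rab genes that these macrophages transcribed held more CG dinucleotides around their starts than the median over all annotated genes, with or without counts here. Of the 56 genes, 46 had a promoter window of 300 bases in RefSeq (GRCm38.p6), 250 bases before and 50 after the start. Where a gene had several windows, that with the most CG dinucleotides was counted. These numbered 25 per window (median; range 6 to 45) in the 39 matched genes whose counts sufficed for a test, 9 (median; range 7 to 38) in the 7 matched genes whose counts did not, and 8 (median) over all 27025 genes with a window. No median was taken over all genes whose counts sufficed for a test. A trait particular to Rab genes can therefore not be read from these values. The bases before the start are shown for Rab40c, the member with the smallest p between homozygous and wild-type mice, for Rab39, the member with the smallest p between homozygous and heterozygous mice, and for Rab25, an epithelial relative of Rab11 with almost no counts here. Capitals mark CG dinucleotides, and each is written 5′ to 3′ on the gene's strand, from 250 bases before the RefSeq start up to that start or the GENCODE start, whichever comes first.
Rab40c, chr17:25919728-25919964, minus strand: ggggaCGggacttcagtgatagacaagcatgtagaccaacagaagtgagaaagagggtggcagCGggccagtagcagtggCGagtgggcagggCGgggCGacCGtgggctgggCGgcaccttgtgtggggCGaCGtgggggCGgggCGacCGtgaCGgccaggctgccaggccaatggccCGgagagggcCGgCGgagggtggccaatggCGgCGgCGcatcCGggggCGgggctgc
Rab39, chr9:53706233-53706482, minus strand: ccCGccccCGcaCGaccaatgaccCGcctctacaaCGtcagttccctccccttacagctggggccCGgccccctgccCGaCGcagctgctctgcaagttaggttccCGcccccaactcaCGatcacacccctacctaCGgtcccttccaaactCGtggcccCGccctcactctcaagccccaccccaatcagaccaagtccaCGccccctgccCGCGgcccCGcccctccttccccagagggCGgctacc
Rab25, chr3:88548301-88548529, minus strand: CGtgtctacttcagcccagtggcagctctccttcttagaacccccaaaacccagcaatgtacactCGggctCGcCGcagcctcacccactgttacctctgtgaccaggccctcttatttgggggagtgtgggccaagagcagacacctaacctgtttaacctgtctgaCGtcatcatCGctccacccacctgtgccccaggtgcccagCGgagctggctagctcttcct
These stretches hold 21 CG dinucleotides for Rab40c, 18 for Rab39 and 7 for Rab25. Motifs were counted by gene, and where a gene had several windows a match in any of them counted. The motif CACGTG is the core of the E-box bound by the lysosomal regulator TFEB among other factors. It stood on either strand in 13.04% of the Rab genes with a window and in 8.09% of all such genes. CCAAT stood in 56.5% of these Rab genes and 41.1% of all genes, and TATAAA in 6.52% and 15.7%. The motif GAGGAAG, of the type bound by the macrophage factor PU.1, stood in 17.4% and 15.4%. Both strands were searched, none of these motifs contains another, and a match is a description of the letters alone.

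Of the 56 Rab genes, 37 had counts in all 10 libraries and 44 had enough counts to be tested. All 7 early endosome genes were tested, as were 8 of 10 recycling, 5 of 6 late endosome, 9 of 13 lysosome-related and secretory, 10 of 13 endoplasmic reticulum and Golgi, and 5 of 7 other genes. The 12 that were not tested were Rab3b, Rab9b, Rab15, Rab19, Rab25, Rab26, Rab30, Rab33a, Rab36, Rab37, Rab40b and Rab44. The epithelial Rab25, for example, had 0.0616 CPM in heterozygous replicate 2 and 0 counts in the other 9 libraries, while Rab44 was at 7.54 CPM in wild-type replicate 3 and 0 counts elsewhere. Rab4a, a regulator of fast recycling that passed the filter, had 0 counts in wild-type replicates 1 and 3, 16.0 CPM in wild-type replicate 2, and 4.19 to 10.5 CPM in the other genotypes. Rab27a, which tethers secretory lysosomes, had 0 counts in wild-type replicates 1 and 2 and 10.9 CPM in replicate 3.

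Levels of different genes were compared per kilobase of exon, since a longer transcript gives more fragments. In wild-type libraries the highest was Rab32, a Rab of lysosome-related organelles, at 124 ± 26.8 CPM per kilobase (SD, n = 3). It was followed by the endoplasmic reticulum and Golgi Rabs Rab1a at 103 ± 16.1 and Rab2a at 102 ± 23.4, the late endosome Rab7 at 97.6 ± 2.84, the exocytic Rab8b at 92.9 ± 5.05 and Rab1b at 88.01 ± 14.3 CPM per kilobase (SD, n = 3 each). These 6 overlapped with their neighbours in the order, and a clear step (no overlap of the 3 libraries) lay between Rab1b and Rab31. The early endosome Rab31 at 74.1 ± 1.99, and the recycling Rab11a at 68.1 ± 6.78 and Rab10 at 67.0 ± 8.86 CPM per kilobase (SD, n = 3 each), formed the next group. The only other step without overlap followed Rab10, down to Rab8a at 37.2 ± 7.92 CPM per kilobase (SD, n = 3). All other neighbours among the 48 Rab genes with counts in wild type, 45 of 47 pairs, overlapped, so their order is not fixed by 3 libraries.

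**Figure D1:**
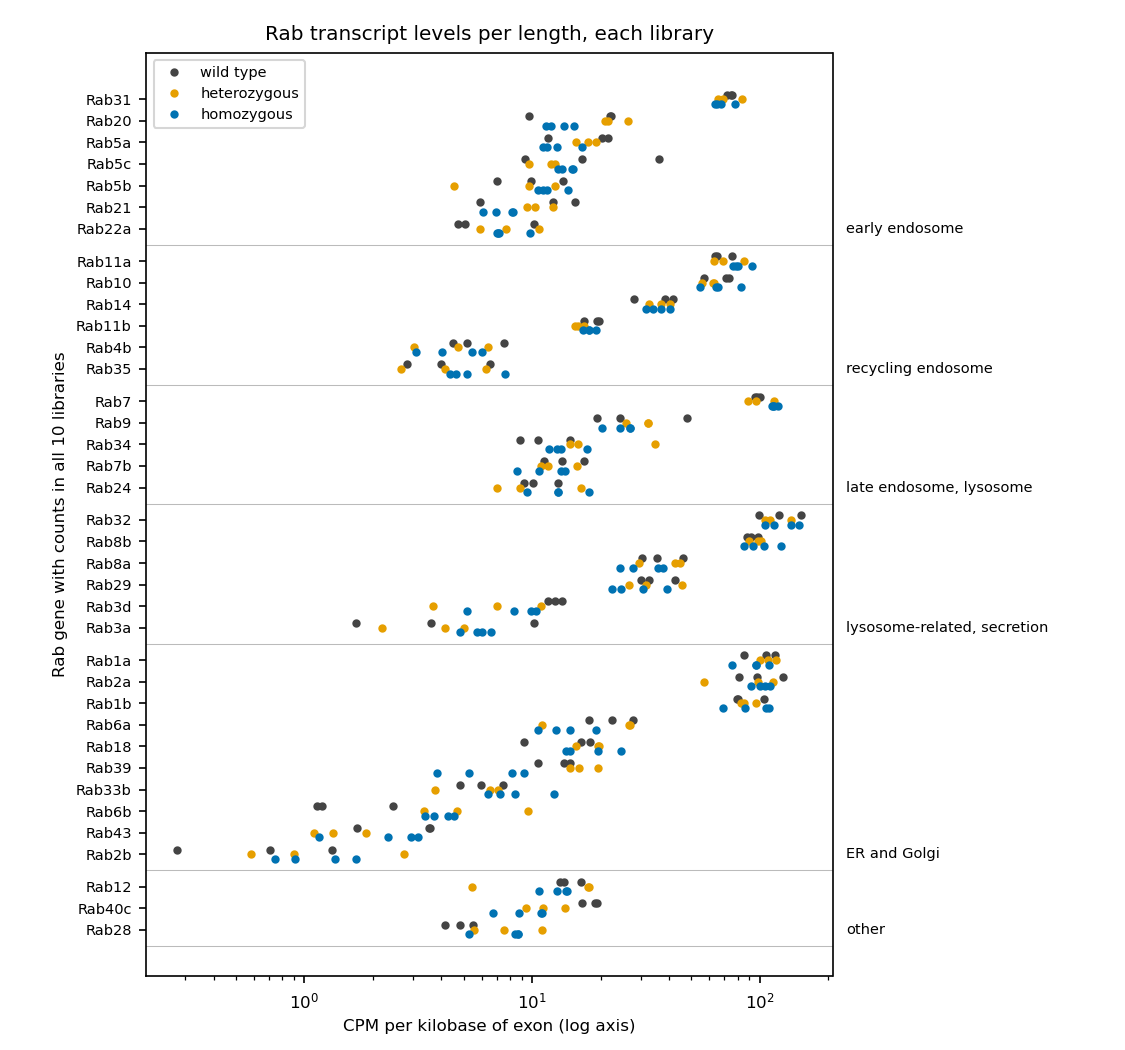
CPM per kilobase of exon (log axis) of the 37 Rab genes with counts in all 10 libraries, grouped by membrane class, with a point per library coloured by genotype. Rab32, Rab7, Rab1a, Rab2a, Rab8b and Rab1b lead, and within most genes the points of the 3 genotypes lie on top of each other.

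Within families of close relatives a single gene often carried most of the transcript. As shares of the family's summed CPM per kilobase over all 10 libraries, Rab7 made up 89.2% ± 2.63 (SD, n = 10) against Rab7b, Rab11a 80.8% ± 2.698 (SD, n = 10) against Rab11b, and Rab8b 73.3% ± 5.56 (SD, n = 10) against Rab8a. Rab32 made up nearly all of its pair with Rab38, which stood at 0.851% (n = 10). The Rab5 family was more even, with 38.9% ± 9.97 Rab5a, 25.5% ± 6.20 Rab5b and 35.6% ± 7.67 Rab5c (SD, n = 10 each), and so was the Rab1 pair, with 53.0% ± 6.27 Rab1a (SD, n = 10). The genes that shared the most stretches of 50 bases with each of the 56 in their annotated exons included no other Rab gene of the set. How well reads were assigned between relatives was not tested. Rab7 and Rab11b shared 12.7% and 13.6% of such stretches with other genes, among them the pseudogene copies Rab7-ps1 and Rab11b-ps2. The counting may have split reads from these stretches.

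The early endosome Rabs, the first station for cargo taken up at the surface, were led by Rab31, with lower and more variable Rab5a, Rab22a and Rab21. Rab31 acts between early endosomes and the Golgi network. Of Rab31, wild-type mice had 288, 285 and 274 CPM, heterozygous mice 249.6, 263 and 318 CPM and homozygous mice 298, 258, 249 and 242 CPM. The genotypes overlapped. Rab5a drives fusion of early endosomes. In wild type, Rab5a stood at 114, 62.0 and 107 CPM, in heterozygous mice at 82.4, 92.7 and 100.3 CPM and in homozygous mice at 68.0, 87.5, 58.9 and 61.3 CPM. The homozygous libraries lay in the lower part of the range, but wild-type replicate 2 lay within the homozygous range. Rab22a feeds tubules that leave early endosomes. Rab22a was measured at 36.5, 73.1 and 34.0 CPM in wild-type mice, 55.5, 77.7 and 42.4 CPM in heterozygous mice and 70.8, 51.7, 50.7 and 51.1 CPM in homozygous mice. The 2 lowest values were wild type, and the groups overlapped. Rab21, known for carrying integrins through early endosomes, had its highest and its lowest value in wild type. Of Rab21, wild-type mice had 77.7, 62.6 and 29.9 CPM, heterozygous mice 52.2, 48.0 and 62.6 CPM and homozygous mice 35.0, 30.7, 41.2 and 41.7 CPM. The 4 homozygous libraries were below all 3 heterozygous ones, while wild type overlapped both.

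The log2 fold change from wild type to homozygous was -0.11 (SE 0.12) for Rab31, -0.45 (SE 0.23) for Rab5a, 0.23 (SE 0.32) for Rab22a and -0.61 (SE 0.30) for Rab21. The adjusted p was 0.999, 0.709, 0.999 and 0.698 in the same order (edgeR's quasi-likelihood test, adjusted by Benjamini-Hochberg over 14023 genes), so none passed. For Rab21 the value ran from -0.92 without wild-type replicate 3 to -0.31 without wild-type replicate 1, and for Rab5a from -0.68 without wild-type replicate 2 to -0.29 without wild-type replicate 1.

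The remaining early endosome genes were Rab5b, Rab5c and Rab20. Rab5b ran from 19.1 to 60.2 CPM over the 10 libraries. Rab5c ran from 20.5 to 36.2 CPM in 9 libraries and stood at 79.4 CPM in wild-type replicate 1. Rab20, a Rab of maturing phagosomes in macrophages, was lower in homozygous than in heterozygous mice. In wild type, Rab20 stood at 30.9, 30.5 and 13.5 CPM, in heterozygous mice at 30.1, 29.2 and 36.9 CPM and in homozygous mice at 19.3, 16.8, 21.4 and 16.0 CPM. All 4 homozygous libraries were below all 3 heterozygous ones, and wild-type replicate 3 was lower still. From heterozygous to homozygous it differed by a log2 fold change of -0.80 (SE 0.33, unadjusted p = 0.0349 and adjusted p = 1 in edgeR's quasi-likelihood test). Against wild type it was -0.44 (SE 0.33, adjusted p = 0.938 in the same edgeR test), and -0.74 without wild-type replicate 3 and -0.26 without wild-type replicate 1. The annotation places 25.6% of the exon bases of Rab20 within another gene, whose reads cannot be told apart in an unstranded library.

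Recycling Rabs had the highest summed level of the 3 endosomal classes, and most of it came from Rab11a, Rab10 and Rab14. Rab14, which links the Golgi and endosomes, had the highest CPM of all Rab genes, on a long transcript. Rab14 was measured at 567, 382.8 and 521 CPM in wild-type mice, 547, 500.3 and 444 CPM in heterozygous mice and 501, 551, 461 and 428 CPM in homozygous mice. Rab10 is a Rab of recycling and of receptor delivery to the surface. Of Rab10, wild-type mice had 199, 249 and 257 CPM, heterozygous mice 219, 221 and 196 CPM and homozygous mice 226, 192, 231 and 290.1 CPM. Neither showed a group apart from the others. Rab11a, the best known recycling endosome Rab, was the only tested member of this class whose homozygous and wild-type libraries did not overlap. In wild type, Rab11a stood at 194, 227 and 190.3 CPM, in heterozygous mice at 206, 254 and 188 CPM and in homozygous mice at 235, 276, 228 and 239 CPM. All 4 homozygous libraries lay above all 3 wild-type libraries by a narrow margin, and heterozygous libraries overlapped both. Its relative Rab11b varied least of all Rab genes with counts in every library, with a coefficient of variation of 8.06% over the 10 libraries. Rab11b was measured at 118, 104 and 121 CPM in wild-type mice, 97.7, 94.3 and 104 CPM in heterozygous mice and 103, 109, 109 and 117 CPM in homozygous mice.

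From wild type to homozygous, the log2 fold change was -0.02 (SE 0.15) for Rab14, -0.0033 (SE 0.15) for Rab10, 0.26 (SE 0.14) for Rab11a and -0.06 (SE 0.13) for Rab11b. The adjusted p from edgeR's quasi-likelihood test was 0.708 for Rab11a and 0.999 for the other 3. The signs of the Rab14 and Rab10 values turned with single libraries left out. Rab4b and Rab35, Rabs of fast recycling, were lower, at 5.94 to 14.8 CPM and 7.51 to 21.5 CPM over the 10 libraries. For Rab4b, 65.0% of the exon bases lie within other annotated genes, and the counting may have lost reads there. Rab13, known from epithelial junctions, had 0 counts in wild-type replicates 1 and 2 and in heterozygous replicate 2, and at most 8.35 CPM elsewhere.

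Among late endosome Rabs, Rab7 stood slightly higher in homozygous mice. Rab7 directs fusion with lysosomes and the transport of late endosomes. Of Rab7, wild-type mice had 263, 253 and 248 CPM, heterozygous mice 303, 232 and 252 CPM and homozygous mice 314, 303, 298 and 297 CPM. The homozygous libraries all lay above the wild-type ones, with little spread in either group, and the heterozygous libraries ran from below the wild-type values into the homozygous range. From wild type to homozygous, Rab7 had a log2 fold change of 0.25 (SE 0.11), which did not pass over all genes (unadjusted p = 0.0445, adjusted p = 0.654, edgeR's quasi-likelihood test). It stayed between 0.23 and 0.28 with any single library left out.

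Rab7b, which returns cargo from late endosomes to the Golgi network, overlapped between the genotypes. In wild type, Rab7b stood at 52.2, 78.0 and 62.3 CPM, in heterozygous mice at 50.7, 72.8 and 54.6 CPM and in homozygous mice at 62.3, 39.8, 64.5 and 49.8 CPM. Rab9 carries mannose 6-phosphate receptors on the same kind of route. Rab9 was measured at 84.2, 33.7 and 42.6 CPM in wild-type mice, 56.3, 45.0 and 56.3 CPM in heterozygous mice and 35.4, 42.7, 47.1 and 47.3 CPM in homozygous mice. Wild-type replicate 1 stood apart from the other 9 libraries. For Rab7b the log2 fold change from wild type to homozygous was -0.25 (SE 0.24) and for Rab9 -0.31 (SE 0.30), both with an adjusted p of 0.999 in edgeR's quasi-likelihood test, and for Rab9 it was 0.18 without wild-type replicate 1.

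Rab34, a Rab of lysosome positioning and cilia, was highest in a single heterozygous library. Of Rab34, wild-type mice had 35.1, 25.3 and 21.0 CPM, heterozygous mice 38.2, 35.1 and 82.8 CPM and homozygous mice 28.2, 30.8, 41.6 and 32 CPM. Apart from heterozygous replicate 4 the genotypes overlapped. The log2 fold change from wild type to heterozygous was 0.94 (SE 0.37, unadjusted p = 0.0286, adjusted p = 0.791 by edgeR's quasi-likelihood test), and 0.42 without that library. From wild type to homozygous it was 0.29 (SE 0.34, edgeR adjusted p = 0.999). Rab24, linked to autophagy, ran from 14.1 to 35.8 CPM, with 62.4% of its exon bases shared with the overlapping gene Prelid1.

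Summed over their genes, the 3 endosomal classes kept similar levels in the 3 genotypes, with the lowest mean early endosome sum in homozygous mice. The early endosome Rabs summed to 189.7, 157 and 129 CPM per kilobase in wild-type, 146, 142 and 169 in heterozygous and 148, 137, 131 and 128 in homozygous libraries. Homozygous libraries lay low, and overlapped with wild type. The recycling endosome Rabs summed to 193, 212 and 206 CPM per kilobase in wild-type, 204, 212 and 179 in heterozygous and 212, 222, 207 and 231 in homozygous libraries. The late endosome Rabs summed to 184, 154 and 155 CPM per kilobase in wild-type, 184, 152 and 192 in heterozygous and 176, 175, 185 and 183 in homozygous libraries. Both of these classes overlapped in all genotypes. Means were 159 ± 30.4, 152 ± 14.6 and 136 ± 9.10 CPM per kilobase for the early class, 204 ± 9.18, 198 ± 17.1 and 218 ± 10.4 for the recycling class and 164 ± 17.1, 176 ± 21.1 and 180 ± 5.27 for the late class in wild-type (n = 3), heterozygous (n = 3) and homozygous (n = 4) libraries (SD).

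Expressed as a share of the 3 classes together, per kilobase, early endosome Rabs made up 30.0% ± 3.55 in wild-type (n = 3), 28.9% ± 2.12 in heterozygous (n = 3) and 25.5% ± 1.69 in homozygous libraries (n = 4) (SD). The ranges were 26.3 to 33.4%, 27.3 to 31.3% and 23.6 to 27.7%, so that homozygous libraries overlapped with both other groups. Recycling Rabs made up 38.9% ± 4.19, 37.7% ± 4.36 and 40.8% ± 1.52, and late endosome Rabs 31.2% ± 1.55, 33.3% ± 2.90 and 33.7% ± 1.26 in the same order (SD). Late endosome shares ran from 29.4 to 32.4% in wild-type, 30.0 to 35.5% in heterozygous and 32.7 to 35.4% in homozygous libraries. Homozygous and wild-type libraries did not overlap, by a narrow margin, while heterozygous libraries overlapped both. By CPM, without the correction for length, early endosome Rabs made up 28.4%, 27.8% and 24.98% in that order of genotypes. Recycling Rabs made up 51.5%, 50.7% and 53.0% and late endosome Rabs 20.2%, 21.5% and 21.99%. By CPM too, late endosome shares did not overlap between homozygous libraries, at 20.7 to 23.5%, and wild-type libraries, at 19.8 to 20.5%. Recycling Rabs led by both measures, while early and late endosome Rabs changed places with the correction. Within each class, the order of the genotypes was the same by both measures. Neither the sums nor the shares were tested. All 56 Rab genes together were at 4330 ± 137 CPM in wild-type (n = 3), 4336 ± 266 CPM in heterozygous (n = 3) and 4281 ± 151 CPM in homozygous libraries (n = 4) (SD).

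**Figure D2:**
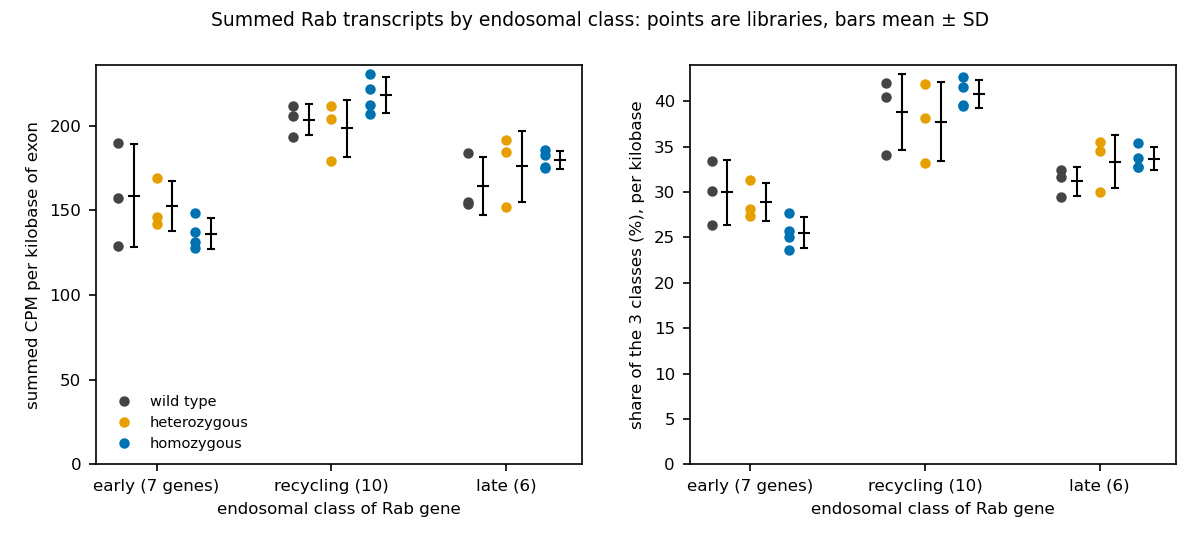
Summed CPM per kilobase of exon (left) and share of the 3 endosomal classes in percent (right) for the 7 early, 10 recycling and 6 late endosome Rab genes, with a point per library and bars for mean ± SD. The early endosome points of homozygous mice lie low, between 128 and 148 CPM per kilobase, within reach of wild-type values of 129 to 190.

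The medians of the single fold changes differed between the classes for homozygous against wild-type mice. From wild type to homozygous the median log2 fold change was -0.44 over the 7 early endosome genes, with 2 above 0 and 5 below. It was 0.11 over the 8 tested recycling genes, with 4 above and 4 below, and 0.25 over the 5 tested late endosome genes, with 3 above and 2 below. Rab39, with -0.98, was placed with the endoplasmic reticulum and Golgi and is not among the late endosome genes. Medians over so few genes depend on such placements. Over all 44 tested Rab genes it was 0.0024, with 22 above and 22 below, and over all 14023 genes 0.02. From wild type to heterozygous the medians were -0.04, -0.09 and -0.01 for the early, recycling and late genes, -0.03 for all 44 and 0.01 for all 14023 genes. From heterozygous to homozygous they were -0.08, 0.16 and -0.13, with -0.01 for all 44 and 0.01 for all genes. The comparisons share libraries and are not independent of each other.

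Of the other classes, Rab8b and Rab32 led the lysosome-related and secretory Rabs. Rab8b takes part in exocytic transport and in macropinosomes. In wild type, Rab8b stood at 435, 465 and 418 CPM, in heterozygous mice at 424, 478 and 464 CPM and in homozygous mice at 496, 587, 444 and 405 CPM. Rab32 acts in the making of lysosome-related organelles and on phagosomes. Rab32 was measured at 357, 284 and 232 CPM in wild-type mice, 320.3, 259.8 and 247 CPM in heterozygous mice and 348, 320.4, 246 and 271 CPM in homozygous mice. No genotype stood apart for either gene. Rab1a, which moves vesicles from the endoplasmic reticulum to the Golgi, led the class named after these membranes by CPM. Of Rab1a, wild-type mice had 444, 407 and 324 CPM, heterozygous mice 447, 415 and 379.9 CPM and homozygous mice 419.6, 365, 367 and 286 CPM. Rab2a acts at the same border. In wild type, Rab2a stood at 172, 208 and 271 CPM, in heterozygous mice at 245, 210.3 and 122 CPM and in homozygous mice at 215, 196, 226 and 236 CPM. Both overlapped across genotypes, and heterozygous replicate 4 was low for Rab2a. The log2 fold change from wild type to homozygous was 0.14 (SE 0.13) for Rab8b, 0.03 (SE 0.18) for Rab32, -0.12 (SE 0.15) for Rab1a and 0.0082 (SE 0.23) for Rab2a, each with an adjusted p of 0.999 in edgeR's quasi-likelihood test. Rab12, a Rab of transferrin receptor breakdown, was even apart from a low heterozygous replicate 4. Rab12 was measured at 49.6, 42.0 and 40.1 CPM in wild-type mice, 54.1, 53.6 and 16.5 CPM in heterozygous mice and 42.6, 43.3, 39.0 and 32.7 CPM in homozygous mice. Its log2 fold change from wild type to homozygous was -0.16 (SE 0.36, edgeR adjusted p = 0.999).

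No Rab gene passed the test in any comparison. Between homozygous and wild-type mice, 0 of 44 Rab genes were called at an adjusted p under 0.05 by edgeR's quasi-likelihood test, against 0.0642% of all 14023 genes tested. Between heterozygous and wild-type mice 0 of 44 were called, against 0% of all genes, and between homozygous and heterozygous mice 0 of 44 against 0.0214%. At an unadjusted p under 0.05 there were 5 of 44 Rab genes between homozygous and wild-type mice, 2 higher (Rab6b, Rab7) and 3 lower (Rab38, Rab39, Rab40c), or 11.4% against 7.52% of all genes (4.56% higher and 2.96% lower). There were 4 between heterozygous and wild-type mice, 3 higher (Rab6b, Rab28, Rab34) and 1 lower (Rab40c), or 9.09% against 5.82% (3.42% higher and 2.4% lower). There were 3 between homozygous and heterozygous mice, all lower (Rab20, Rab38, Rab39), or 6.82% against 4.86% (2.65% higher and 2.2% lower). DESeq2, another test on the same counts, called Rab38 and Rab40c between homozygous and wild-type mice (adjusted p = 0.0171 and 0.0227, against 2.04% of all genes called). Rab38 reached the tests only through its wild-type libraries, so its place among the genes that differ from wild type is no evidence. DESeq2 also called Rab6b between heterozygous and wild-type mice (adjusted p = 0.0211, against 1.63%) and Rab39 between homozygous and heterozygous mice (adjusted p = 0.0242, against 0.934%). limma-voom called 0 in all 3 comparisons.

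Groups that did not overlap were somewhat more common than these calls. Between homozygous and wild-type mice, 7 of 44 Rab genes did not overlap, 3 higher (Rab6b, Rab7, Rab11a) and 4 lower (Rab3d, Rab38, Rab39, Rab40c), or 15.9% against 7.97% of all genes tested (4.4% higher and 3.57% lower). Between heterozygous and wild-type mice 6 did not overlap (higher Rab6b, Rab23 and Rab28, lower Rab3d, Rab38 and Rab40c), or 13.6% against 9.6% (5.43% higher and 4.16% lower). Between homozygous and heterozygous mice 5 did not overlap (higher Rab5c, lower Rab20, Rab21, Rab23 and Rab39), or 11.4% against 7.47% (3.75% higher and 3.72% lower). These shares were not tested against each other, and those against wild type include Rab38, which reached the test only through its wild-type libraries. Rab23, known from hedgehog signalling and named here after its values were seen, was near 0 in homozygous mice. Of Rab23, wild-type mice had 0, 8.41 and 6.23 CPM, heterozygous mice 11.3, 16.0 and 8.77 CPM and homozygous mice 1.53, 0, 0.703 and 0 CPM.

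**Figure D3:**
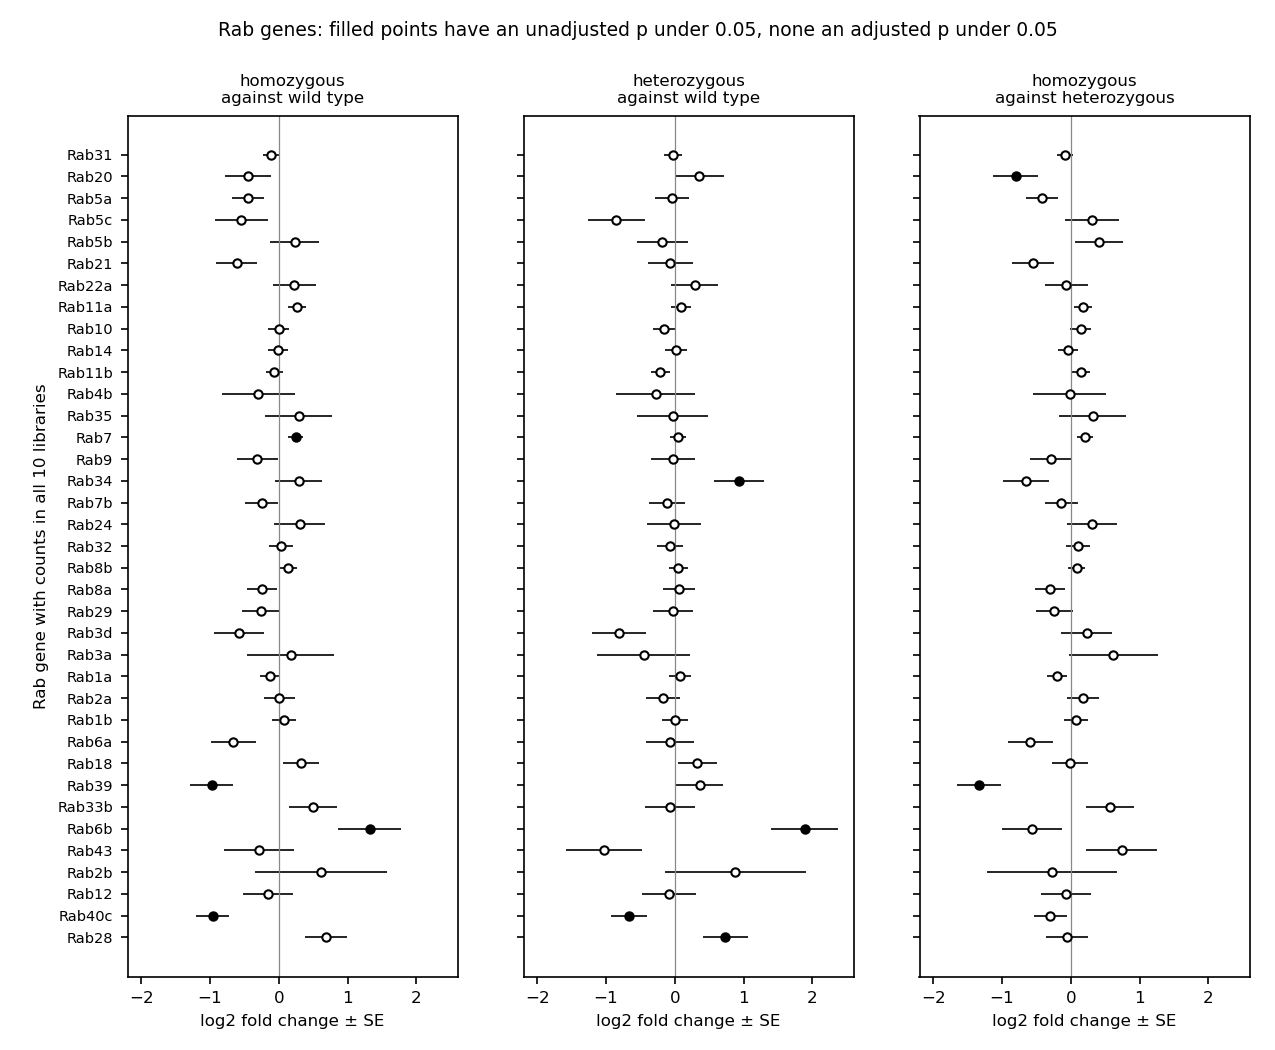
Log2 fold change ± SE of the 37 Rab genes with counts in all 10 libraries, in the 3 comparisons, with filled points for an unadjusted p under 0.05. Most points lie near 0, and Rab6b and Rab39 hold the points farthest out.

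Rab40c, a Rab with a SOCS box that joins a cullin ubiquitin ligase, had lower values in carriers of the allele than in wild type. In wild type, Rab40c stood at 60.0, 58.7 and 51.1 CPM, in heterozygous mice at 43.0, 34.7 and 29.1 CPM and in homozygous mice at 20.9, 34.3, 27.1 and 33.7 CPM. All 7 libraries with the allele lay below all 3 wild-type libraries, and the homozygous and heterozygous libraries overlapped. Its log2 fold change was -0.96 (SE 0.24) from wild type to homozygous and -0.67 (SE 0.26) from wild type to heterozygous. The unadjusted p was 0.00257 and 0.0290, and the adjusted p 0.362 and 0.791, in edgeR's quasi-likelihood test. With single libraries left out the first value stayed between -1.05 and -0.82. Of the markers of other cells, Cd22, Ighm, Ccr2 and the sum of the monocyte markers were also lower in carriers without overlap. The B cell marker Cd22 was at 37.4 to 63.8 CPM in wild-type, 20.2 to 29.4 CPM in heterozygous and 13.6 to 23.7 CPM in homozygous libraries. Ighm, the B cell marker with the highest mean, was at 370 to 590 CPM, 277 to 364 CPM and 190 to 330 CPM in the same order. The monocyte marker Ccr2 was at 68.0 to 161 CPM, 35.1 to 57.9 CPM and 5.72 to 9.29 CPM. The monocyte markers summed to 84.0 CPM or more in wild-type and 72.4 CPM or less in carrier libraries. Ccr2 had the highest mean among them, while Ly6c2, Plac8 and S100a4 had higher means in heterozygous than in wild-type libraries. The B cell markers together overlapped, from 466 CPM in wild-type and up to 475 CPM in heterozygous libraries. The part of such cells in the Rab40c values was not tested.

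Rab39, described on phagosomes and in autophagy and placed here with the endoplasmic reticulum and Golgi, was low in homozygous mice. Rab39 was measured at 31.5, 41.1 and 43.8 CPM in wild-type mice, 48.0, 57.8 and 43.7 CPM in heterozygous mice and 15.7, 27.3, 24.4 and 11.4 CPM in homozygous mice. All 4 homozygous libraries lay below all 6 other libraries, while heterozygous and wild-type libraries overlapped. From heterozygous to homozygous the log2 fold change was -1.34 (SE 0.32, unadjusted p = 0.00176, adjusted p = 0.706, edgeR's quasi-likelihood test). From wild type to homozygous it was -0.98 (SE 0.32, unadjusted p = 0.0116, adjusted p = 0.560, the same edgeR test). The microglia markers given above were lower in the homozygous libraries in the same way, at 2105 to 3258 CPM against 4191 to 9836 CPM in the other 6 libraries, as were the monocyte markers, at 6.24 to 17.6 CPM against 54.4 to 198 CPM. Their part in the values of Rab39, Rab20 and Rab21 was not tested.

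Rab6b, the form of the Golgi Rab6 that is known from neurons, was higher in carriers. Of Rab6b, wild-type mice had 12.3, 5.99 and 5.70 CPM, heterozygous mice 48.5, 23.5 and 16.8 CPM and homozygous mice 17.1, 18.7, 22.8 and 21.4 CPM. All 7 libraries with the allele lay above all 3 wild-type ones, and heterozygous replicate 1 was far above the rest. Its log2 fold change from wild type was 1.89 (SE 0.49, unadjusted p = 0.00300, adjusted p = 0.708) in heterozygous and 1.32 (SE 0.46, unadjusted p = 0.0159, adjusted p = 0.590) in homozygous mice, by edgeR's quasi-likelihood test. Without heterozygous replicate 1 the first value was 1.33. Per kilobase, Rab6b made up 7.01% ± 4.42 of the Rab6 pair in wild-type (SD, n = 3), 21.5% ± 5.93 in heterozygous (SD, n = 3) and 22.4% ± 4.97 in homozygous libraries (SD, n = 4), without overlap between wild type and either. Rab6a ran from 39.6 to 104 CPM over all libraries. Neuron marker sums, at 2.51 to 13.96, 3.36 to 14.3 and 3.16 to 21.6 CPM in wild-type, heterozygous and homozygous libraries, overlapped between the genotypes. Of the single neuron markers, Rbfox3 was higher in carriers without overlap. It was at 0 to 0.136 CPM in wild-type, 0.734 to 2.74 CPM in heterozygous and 0.761 to 4.44 CPM in homozygous libraries. Snap25, Syt1, Tubb3, Stmn2 and Map2 overlapped. The astrocyte marker Gja1 was also higher in carriers without overlap. It was at 0 CPM in wild-type, 8.89 to 13.5 CPM in heterozygous and 3.78 to 13.5 CPM in homozygous libraries. The other astrocyte markers, and the astrocyte marker sums, overlapped between wild-type and carrier libraries. The part of neurons or astrocytes in the Rab6b values was not tested.

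Rab38, the relative of Rab32 known from melanosomes, had counts in wild-type mice and almost none in carriers. In wild type, Rab38 stood at 6.94, 4.83 and 2.93 CPM, in heterozygous mice at 0, 2.49 and 0 CPM and in homozygous mice at 0, 0, 0 and 0 CPM. The gene reached the test only through its wild-type libraries, so it had to differ. Against 3 counts over the 4 homozygous libraries, 0.0228 CPM, the homozygous level was at least 215-fold lower than wild type and at least 36.5-fold lower than heterozygous, where replicate 2 alone had counts. That bound covers counting error only, and in edgeR's quasi-likelihood test the adjusted p was 0.558 against wild type and 1 against heterozygous. Rab38 was at 0 in all homozygous libraries, whose monocyte marker sums were the lowest, and also in heterozygous replicates 1 and 4. Of the monocyte markers, Ccr2 had the highest mean in each genotype, 129 CPM in wild-type, 49.7 CPM in heterozygous and 7.12 CPM in homozygous libraries, and the part of those cells in the Rab38 values was not tested. Rab3c, of regulated exocytosis, had the reverse pattern, with 0 counts in wild type, but 5.99 CPM of it came from homozygous replicate 2 and the other 9 libraries held at most 1.20 CPM.

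Rab3d and Rab28 were described after their values were seen, as their groups did not overlap. Rab3d, a Rab of secretory granules, was highest in wild type. Rab3d was measured at 57.0, 49.2 and 53.0 CPM in wild-type mice, 45.9, 29.4 and 15.4 CPM in heterozygous mice and 43.8, 41.6, 21.6 and 35.1 CPM in homozygous mice. From wild type, its log2 fold change was -0.58 (SE 0.36, adjusted p = 0.848) in homozygous and -0.81 (SE 0.39, adjusted p = 0.791) in heterozygous mice by edgeR's quasi-likelihood test, and the second was -0.50 without heterozygous replicate 4 and -1.25 without heterozygous replicate 1. Rab28, a Rab of cilia and photoreceptors, was low in wild type. Of Rab28, wild-type mice had 18.7, 25.01 and 21.9 CPM, heterozygous mice 50.2, 25.1 and 34.0 CPM and homozygous mice 38.1, 23.9, 39.3 and 39.4 CPM. Its heterozygous and wild-type libraries were separated only by 25.1 against 25.01 CPM. The log2 fold change from wild type to heterozygous was 0.74 (SE 0.33, adjusted p = 0.791, edgeR's quasi-likelihood test), and 0.42 without heterozygous replicate 1.

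**Figure D4:**
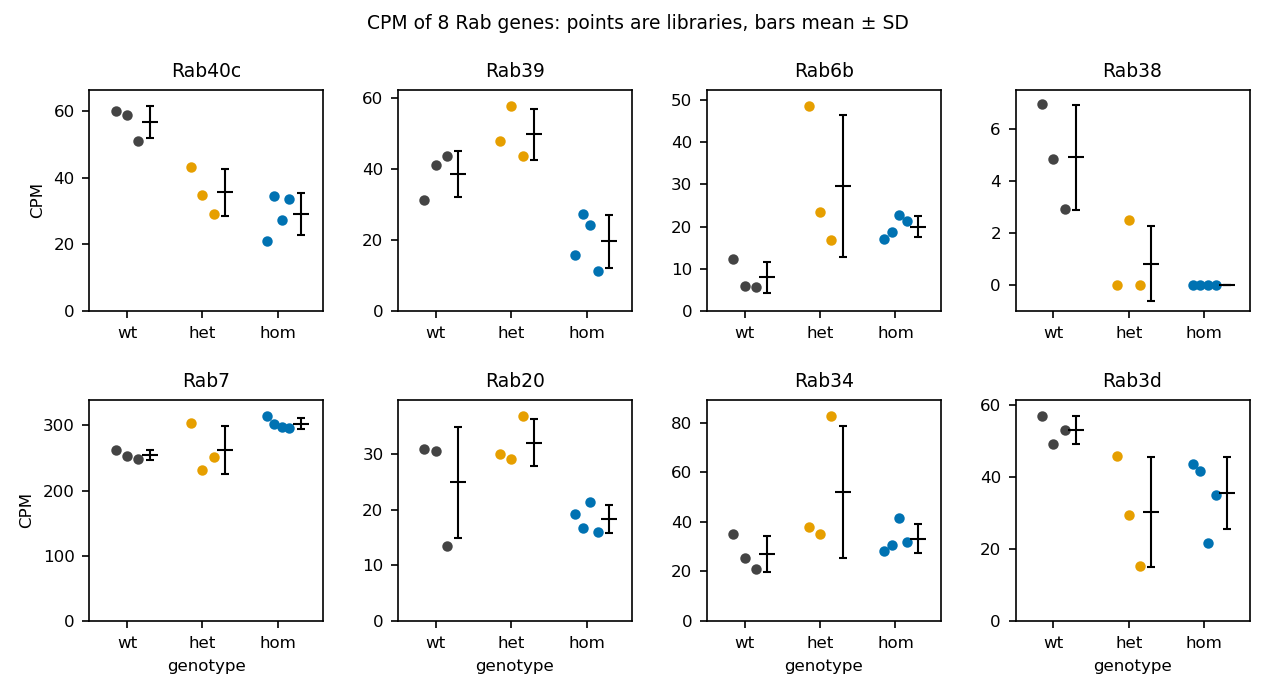
CPM of 8 Rab genes in each library by genotype (wt, wild type; het, heterozygous; hom, homozygous), with mean ± SD beside the points. Rab40c and Rab3d are highest in wild type, Rab6b is lowest there, Rab39 is lowest in homozygous mice, and Rab38 is at 0 in 6 of the 7 carriers.

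Between libraries of a genotype, the Rab genes varied less than the median gene. Over the 31 Rab genes above 20 CPM the median coefficient of variation was 17.4% in homozygous, 14.6% in heterozygous and 19.6% in wild-type mice, against 20.5%, 22.8% and 27.0% over all 6443 genes above that level. This is a description without a test. Rab31, Rab7 and Rab11b were the steadiest over all 10 libraries, at 9.03%, 10.7% and 8.06%, and Rab5c and Rab34 were among the least steady, at 50.1% and 46.5%.

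The proteins that work with Rabs were measured from lists of 114 genes, of which 107 were tested and 0 called in any comparison. At an unadjusted p under 0.05, 7 were higher and 0 lower in homozygous than in wild-type mice, beside 4.56% and 2.96% of all genes. These are 6.54% and 0% of the 107. In heterozygous against wild-type mice 3 (2.8%) were higher and 2 (1.87%) lower, beside 3.42% and 2.4% of all genes. In homozygous against heterozygous mice 6 (5.61%) were higher and 1 (0.935%) lower, beside 2.65% and 2.2% of all genes. In homozygous against wild-type mice the median log2 fold change was 0.20 over 8 genes of the Rab cycle, 0.07 over 20 exchange factors, 0.09 over 22 GTPase-activating proteins, -0.14 over 16 early endosome effectors, 0.08 over 24 recycling effectors and retromer genes and 0.10 over 17 late endosome effectors and HOPS genes. The early endosome effectors had 5 of 16 genes above 0 and the late endosome effectors 12 of 17, beside 7167 of 14023 genes tested. In heterozygous against wild-type mice these counts were 7 and 12, beside 7108 genes, and in homozygous against heterozygous mice 8 and 8, beside 7137 genes.

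Recycling effectors and retromer held 4 of the 7 higher genes. Snx2, a sorting nexin of the retromer coat, was at 1039 ± 133 CPM in homozygous (SD, n = 4) and 722 ± 70.4 CPM in wild-type libraries (SD, n = 3), a log2 fold change of 0.53 (SE 0.12, edgeR adjusted p = 0.301). Snx3, which works with retromer on early endosomes, was at 644 ± 38.3 CPM (SD, n = 4) and 519 ± 13.9 CPM (SD, n = 3), a log2 fold change of 0.31 (SE 0.08, edgeR adjusted p = 0.391). Fyco1, a Rab7 effector that links late endosomes to kinesin, was at 29.9 ± 10.6 CPM (SD, n = 4) and 9.15 ± 2.65 CPM (SD, n = 3), a log2 fold change of 1.71 (SE 0.41, edgeR adjusted p = 0.338). Vps39, of the HOPS tethering complex, was at 69.5 ± 8.62 CPM in homozygous (SD, n = 4), 43.5 ± 7.87 CPM in heterozygous (SD, n = 3) and 64.7 ± 20.4 CPM in wild-type libraries (SD, n = 3).

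Of the exchange factors, Gapvd1, which acts on Rab5, was at 249 ± 43.8 CPM in homozygous (SD, n = 4) and 165 ± 36.8 CPM in wild-type libraries (SD, n = 3), a log2 fold change of 0.59 (SE 0.18, edgeR adjusted p = 0.499). Dennd5a, of the DENN family, was at 105 ± 15.02 CPM (SD, n = 4) and 59.5 ± 5.61 CPM (SD, n = 3), a log2 fold change of 0.82 (SE 0.28, edgeR adjusted p = 0.590). Of the GTPase-activating proteins, Evi5 was at 60.9 ± 12.1 CPM in heterozygous (SD, n = 3) and 92.5 ± 20.3 CPM in wild-type libraries (SD, n = 3), and Rabgap1 at 85.6 ± 19.02 CPM in homozygous (SD, n = 4) and 56.6 ± 13.8 CPM in heterozygous libraries (SD, n = 3). Rabggtb, the catalytic subunit of the enzyme that attaches the lipid tail, was at 9.26 ± 3.56 CPM in homozygous (SD, n = 4) and 17.7 ± 0.623 CPM in wild-type libraries (SD, n = 3), and the prenylated Rab acceptor Rabac1 at 313 ± 21.5 CPM (SD, n = 4) and 278 ± 25.6 CPM (SD, n = 3). Of the early endosome effectors, Pik3c3, the lipid kinase that makes the early endosome's phosphoinositide, was at 37.6 ± 2.32 CPM in heterozygous (SD, n = 3) and 58.4 ± 22.7 CPM in wild-type libraries (SD, n = 3), and Stam2, of the ESCRT-0 sorting complex, at 75.5 ± 12.5 CPM (SD, n = 3) and 54.4 ± 13.4 CPM (SD, n = 3). None of these differences passed over all genes.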

How the data were processed

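Bulk RNA libraries of CNS-associated macrophages from 10 mice were measured. Per the labels' protocols, they were made from 500 pg of RNA with an unstranded SMARTer kit and Nextera XT, in 1 batch. The authors deposited whole-number read counts per gene symbol. The submitters' processing notes name bcl2fastq 2.20 and the STAR aligner 2.7.8a, and the counter featureCounts 2.0.2. The sources used here give no genome build, annotation or strand setting.

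The filter on low counts was filterByExpr with genotype as the grouping, a minimum count of 10 and a minimum total of 15, and it kept 14023 genes with 99.9% of the counts. Libraries were scaled by trimmed means of M values, and the deposited counts of all 10 libraries were fitted with genotype as the only term (edgeR 4.0.16, robust quasi-likelihood test, R 4.3.3). Benjamini-Hochberg adjustment ran over all tested genes, and calls needed an adjusted p under 0.05. The SE of each log2 fold change was taken as its size over the square root of F. Exon lengths came from GENCODE vM21, where 56 of 56 genes matched. Promoters came from RefSeq. The fit was checked on simulated data.

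Named genes were the 4 (endosomal classes) or 2 (other classes) with the highest mean CPM, the 3 with the smallest p in each comparison, and 2 of each list of interacting genes. The members and lists were chosen with earlier results of these data known. Alternatives were DESeq2 size factors, DESeq2 1.42.0, limma-voom (limma 3.58.1), no count filter, a stricter one, no robust estimation, the title letter (m or f) as covariate, the replicate number as a block, fits restricted to the 2 genotypes in question, and the omission of each library in turn. Floors of 3 counts cover counting error only. The levels of 1 monocyte and 1 B cell marker that enter the summed marker levels are not reported here.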

Additional observations from a re-analysis of the deposited data

Results flagged for a closer look

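Homozygous values of 23 named Rab genes and 7 sums over Rab genes were screened for a single library far from the other 3, and 2 single genes stood out, where chance gives about 1 in 20. Rab22a, an early endosome Rab, was at 70.8 CPM in homozygous replicate 1 and at 50.7 to 51.7 CPM in the other homozygous libraries. Rab28, a Rab of cilia, was at 23.9 CPM in homozygous replicate 2 and at 38.1 to 39.4 CPM in the other homozygous libraries.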

How the results depend on the processing

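With 3 or 4 mice a genotype, SEs of about 0.3 on the log2 scale (median over the 44 tested Rab genes, homozygous against wild type, 0.32) limit what the tests can call. The count of 0 Rab genes called held in all 3 comparisons under each alternative except DESeq2, which called 2 between homozygous and wild-type, 1 between heterozygous and wild-type and 1 between homozygous and heterozygous mice, where the cause was not tested. Same-numbered libraries did not deviate together (correlations from -0.012 to 0.035), so the numbers were not taken as pairs. With the replicate number as a block 0 Rab genes were called, and the median log2 fold change of all Rab genes from heterozygous to homozygous was 0.073. Leaving out single libraries, the median ran from -0.068 to 0.073 between heterozygous and wild-type mice and from -0.014 to 0.16 between homozygous and heterozygous mice. Per kilobase in place of CPM, the share of late endosome Rabs was 33.3% in heterozygous, 33.7% in homozygous and 31.2% in wild-type libraries, and that of recycling Rabs 37.7%, 40.8% and 38.9%, since the genes differ in length. Values near 0 changed sign from wild type to homozygous. Rab10 was at 0.0037 with no count filter, 0.0050 with only the 2 genotypes compared and from -0.12 to 0.080 with single libraries left out. Rab14 was at 0.0059 by limma-voom, 0.052 with the replicate block and from -0.16 to 0.11 with single libraries left out. Rab2a was at -0.012 with DESeq2 size factors and by DESeq2, and from -0.13 to 0.20 with single libraries left out. Rab12 was at 0.082 with the replicate block. Rab32 ran from -0.11 to 0.21 and Rab9 from -0.56 to 0.18 with single libraries left out. The cause of these turns was not tested. No value was used for Rab38 in homozygous against heterozygous mice without heterozygous replicate 2 or with only these genotypes compared.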
